A study of Mus musculus with 2 samples.

Results

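The subunits of the receptors for glutamate, GABA and glycine were followed in the cerebral cortex of 6-month-old presenilin conditional double knockout mice. A gene was taken as a member if the platform's probe-to-gene pairing gave its probe set exactly 1 symbol, and that symbol was one of an AMPA (Gria), kainate (Grik), delta (Grid), NMDA (Grin1, Grin2a to Grin2d) or metabotropic glutamate receptor (Grm), a GABA-A (Gabra, Gabrb, Gabrd, Gabre, Gabrg, Gabrr) or GABA-B receptor (Gabbr), or a glycine receptor (Glra, Glrb). This gave 26 of the 8251 genes named in that way, covered by 33 of the 12418 probe sets. The classes held 4 AMPA, 3 kainate, 1 delta, 4 NMDA, 1 metabotropic glutamate, 10 GABA-A, 1 GABA-B and 2 glycine receptor genes. No probe set with several symbols named a member, and receptor subunits outside these 26 were not analysed here.

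The arrays were 1 of the presenilin conditional double knockout (PS cDKO) and 1 of a control, both of total RNA from cerebral cortex at an age of 6 months. The presenilin alleles, the Cre driver, the strain, the sex, and whether RNA of several animals was pooled are not stated in the labels, nor is the genotype of the control beyond that word. With 1 array per genotype there was no replicate check and no test, so every ratio below compares these 2 arrays and not the genotypes.

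Glutamate carries most excitatory transmission in the cortex. It acts on tetrameric channels of the AMPA, kainate and NMDA types, which differ in speed and calcium entry, and on G protein-coupled metabotropic receptors. GABA and glycine act on pentameric chloride channels of the Cys-loop family, and GABA also on the G protein-coupled GABA-B receptor. Subunit makeup sets where such a receptor sits and how it gates, and a change in a subunit's mRNA is not by itself a change in receptors at the membrane.

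Ratios are PS cDKO over control. Signals are array intensities in arbitrary units, those of the PS cDKO array after scaling that added 0.034 on the log2 scale. A signal below 232, the 40th percentile of both arrays pooled, was treated as lying at a floor. Of the 26 genes, 15 were above the floor on both arrays, 1 (Grik2) on the control array only, and 10 on neither. Those 10 have no ratio, so the counts below describe 16 measured genes and not the whole family. Sorting genes by this floor uses the same signals as the ratios.

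**Figure D1:**
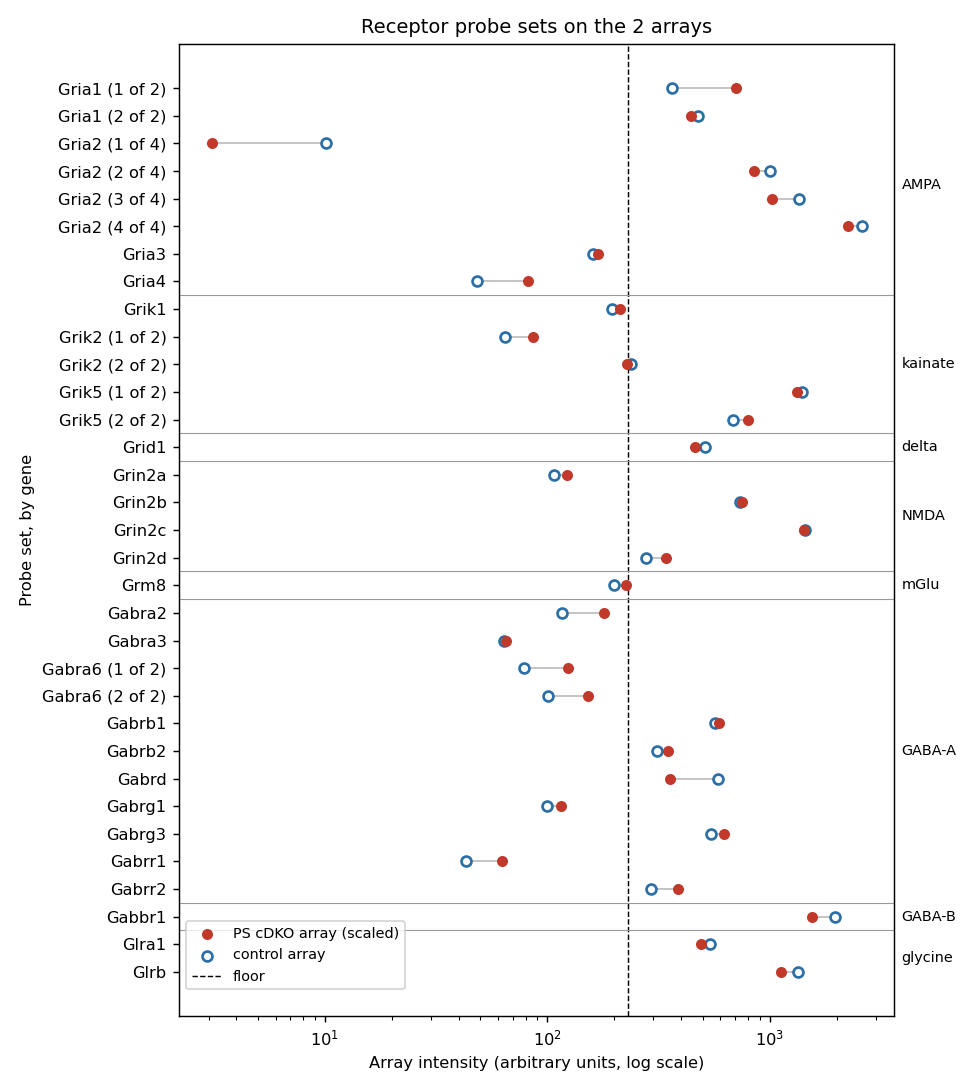
Intensity (log scale) of the 33 receptor probe sets, filled for the PS cDKO array and open for the control array, with the floor dashed and the receptor classes at the right; mGlu is the metabotropic glutamate class. Most pairs of points lie close together, and the widest gaps above the floor are those of 1 Gria1 probe set and of Gabrd.

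The receptor genes as a group showed no common direction on these arrays. Among the 16 measured genes, 8 were higher and 8 lower in the PS cDKO, and their median log2 ratio was 0.015, beside a median of 0.012 over all 5885 measured genes, of which 48.1% were lower. At 1.5-fold or more, 1 receptor gene was lower, where 0.816% of all genes were, and 0 were higher, where 1.12% of all genes were. At a log2 ratio of 0.32 or more in size, 2 were lower (Gabrd and Gabbr1) and 2 higher (Gria1 and Gabrr2), against 8.36% lower and 8.05% higher among all genes. Of the 15 receptor genes with a measured ratio on both arrays, 11 had a log2 ratio smaller than 0.32, against 84.0% of all such genes. The SD of the log2 ratio was 0.31 across these 15 genes and 0.24 across all 5414 genes measured on both. A robust SD, from the median absolute deviation, was 0.26 across the 15 and 0.23 across the 5414. The repeat measurement at hand was that by different probe sets of the same gene, and over 749 pairs of them a probe set's log2 ratio had an SD of 0.21. Both probe sets of a pair were read on the same arrays, so this SD leaves out variation between animals and between arrays.

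**Figure D2:**
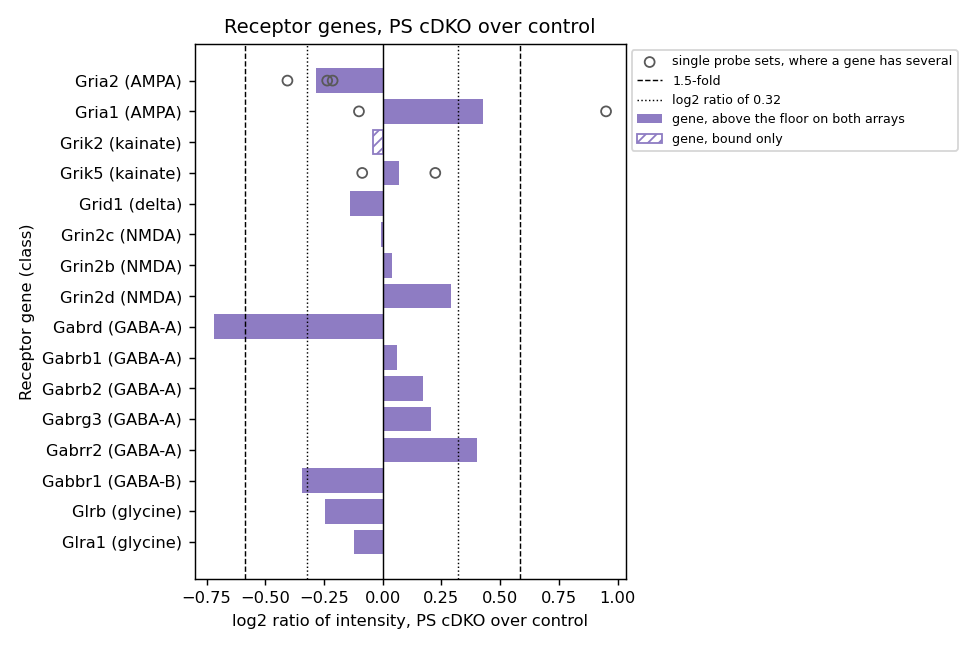
Log2 ratio of intensity, PS cDKO over control, for the 16 measured receptor genes by class, with single probe sets as circles where a gene has several above the floor. Gabrd at -0.72 lies past the 1.5-fold line, and the circles of Gria1 lie at -0.10 and 0.95.

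Gabrd showed the largest difference among the 16 gene values. It encodes the delta subunit of GABA-A receptors that sit outside synapses and carry tonic inhibition. Its single probe set had a signal of 357 in the PS cDKO and 587 in the control, a 1.64-fold lower value (log2 ratio -0.72). Of the 5414 genes measured on both arrays, 17, or 0.314%, were as low or lower, Gabrd included. When the floor was raised to the 60th percentile, the PS cDKO signal was at the floor and the value became a bound of at least 1.46-fold lower, so that no receptor gene passed 1.5-fold. Under each of the other scalings and floors tried it lay between 1.64-fold and 1.68-fold lower, though a lower floor or none could not change it.

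The other GABA-A subunits above the floor were all higher in the PS cDKO, by small amounts, where 48.1% of all measured genes were lower. Gabrb2, one of the beta subunits of synaptic GABA-A receptors, had 349 in the PS cDKO and 310 in the control (log2 ratio 0.17). Gabrb1, another beta subunit, had 592 in the PS cDKO and 569 in the control (log2 ratio 0.06). Gabrg3, a gamma subunit, had 626 in the PS cDKO and 542 in the control (log2 ratio 0.21). The log2 ratios of all 3 were within the probe-set SD of 0.21. Gabrr2, a rho subunit best known from the retina, had 388 in the PS cDKO and 294 in the control, a 1.32-fold higher value that 4.01% of genes reached. Its relative Gabrr1 was at the floor on both arrays. With Gabrd included, the median of the 5 measured GABA-A genes was 0.17 and their mean 0.02.

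The remaining 5 GABA-A genes were at the floor on both arrays and gave no ratio. Gabra2 and Gabra3, alpha subunits that contribute to the benzodiazepine site, had 180 and 65.0 in the PS cDKO, against 117 and 63.9 in the control. Gabrg1, a gamma subunit, had 115 in the PS cDKO and 99.3 in the control, and Gabrr1 had 62.6 in the PS cDKO and 43.0 in the control. Gabra6, the alpha subunit of cerebellar granule cells, had 123 and 152 in its 2 probe sets in the PS cDKO and 78.4 and 101 in the control. Signals in this range have no order here.

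Gabbr1, the ligand-binding subunit of the GABA-B receptor, was lower. Its probe set had 1555 in the PS cDKO and 1974 in the control, a 1.27-fold lower value that 7.11% of genes reached. It was 1.20-fold lower after lowess normalization and 1.21-fold lower after quantile normalization. Both glycine receptor genes were lower as well. Glrb, the beta subunit that binds the scaffold protein gephyrin, had 1127 in the PS cDKO and 1338 in the control, 1.19-fold lower. Glra1, the alpha subunit that predominates in adult spinal cord and brainstem, had 493 in the PS cDKO and 538 in the control, 1.09-fold lower.

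Among AMPA receptor genes, Gria2 and Gria1 gave opposite values, and those of Gria1 disagreed between its probe sets. Gria2 encodes the subunit that, in its edited form, keeps calcium out of the channel. Its 3 probe sets above the floor had 2242, 1023 and 851 in the PS cDKO, against 2599, 1356 and 1002 in the control. All 3 were lower, with log2 ratios of -0.21, -0.41 and -0.24 and a gene value 1.22-fold lower that 11.2% of genes reached. Those with the weaker signals are listed under the same sequence record, so the 3 are not independent. The other probe set of the gene had 3.10 in the PS cDKO and 10.1 in the control. With no floor that probe set entered the mean, and Gria2 was 1.56-fold lower.

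Gria1, the subunit whose insertion at synapses accompanies potentiation, had 706 in the PS cDKO and 365 in the control in one probe set, a log2 ratio of 0.95. Its other probe set had 444 in the PS cDKO and 477 in the control, a log2 ratio of -0.10. The gene value of 0.42, or 1.34-fold higher, is the mean of this pair and describes neither. Taking the probe set with the higher mean signal made Gria1 1.93-fold higher, but that probe set is the brighter one only in the PS cDKO, so the difference itself decides the choice. With a floor at the 60th percentile, where only the other remained above the floor on both arrays, it was 1.07-fold lower. Gria3 had 169 in the PS cDKO and 161 in the control, and Gria4 had 81.8 in the PS cDKO and 48.4 in the control, both at the floor on both arrays.

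NMDA receptor genes differed little. Grin2b, the GluN2B subunit of forebrain receptors, had 753 in the PS cDKO and 733 in the control (log2 ratio 0.04). Grin2c, the GluN2C subunit best known from cerebellum, had 1431 in the PS cDKO and 1439 in the control (log2 ratio -0.01). Grin2d, the GluN2D subunit found in interneurons, had 341 in the PS cDKO and 279 in the control, 1.22-fold higher, a value 9.68% of genes reached. Grin2a, the GluN2A subunit of mature synapses, lay at the floor, with 123 in the PS cDKO and 108 in the control. The median over the 3 measured NMDA genes was 0.04.

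The measured kainate and delta receptor genes had small ratios, and the metabotropic class gave none. Grik5, the high-affinity GluK5 subunit, had 1322 and 800 in the PS cDKO in its 2 probe sets, against 1404 and 685 in the control. These log2 ratios of -0.09 and 0.22 have opposite signs, and the gene value of 0.07 became -0.09 without the suffixed probe set. Grik2, the GluK2 subunit, had 229 in the PS cDKO and 238 in the control in its brighter probe set, a bound of at least 1.03-fold lower. Its other probe set, with 85.9 in the PS cDKO and 64.3 in the control, was at the floor on both arrays, and with no floor the gene was 1.13-fold higher. Grik1, the GluK1 subunit, was at the floor, with 213 in the PS cDKO and 195 in the control. Grid1, a delta receptor that binds cerebellins, had 463 in the PS cDKO and 510 in the control, 1.10-fold lower. Grm8, a presynaptic metabotropic receptor that lowers transmitter release, was at the floor with 226 in the PS cDKO and 200.1 in the control, so it has no ratio.

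**Figure D3:**
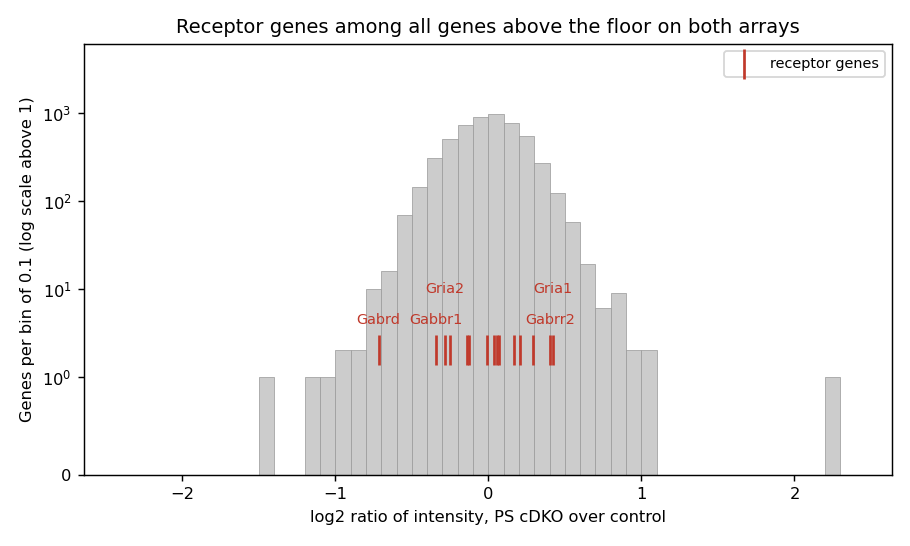
Number of genes per bin of 0.1 in log2 ratio, PS cDKO over control, for the 5414 genes measured on both arrays, with the 15 receptor genes as red marks placed at an arbitrary height. Gabrd sits in the lower tail at -0.72, and the other 14 lie between -0.34 and 0.42.

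Receptor probe sets with strong signals were lower, and those with weaker signals were mixed. Of 6 probe sets with a mean signal of 1000 or more, a value chosen after the signals were seen, all 6 were lower in the PS cDKO: a pair for Gria2 and 1 each for Grik5, Grin2c, Gabbr1 and Glrb. Their median log2 ratio was -0.23. Among all 1242 probe sets this bright, 58.8% were lower and the median was -0.05. Of the 13 receptor probe sets above the floor but below 1000, 5 were lower, against 46.9% of all 5013 such probe sets. After lowess normalization 5 of the 6 bright ones were lower, all but that of Grin2c, with a median of -0.15, against 47.4% of all bright probe sets.

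Several members lie side by side in the genome, which the choice of members did not use. In the RefSeq order of protein-coding genes of the assembly GRCm38.p6, Gria2 adjoins Glrb on chromosome 3, Gabrg1 adjoins Gabra2 on chromosome 5, Gabrr2 adjoins Gabrr1 on chromosome 4, and Gabra6 adjoins Gabrb2 on chromosome 11. Gria2 and Glrb were the only adjacent members both above the floor, and both were lower, by 1.22-fold and 1.19-fold. The 250 bases before the start of these 2 genes and of Gabbr1 are shown, from RefSeq on GRCm38.p6, as those of the 3 lowest genes that have an entry there. Gria2 is at chr3:80802836-80803085 (minus strand), Glrb at chr3:80913661-80913910 (minus strand) and Gabbr1 at chr17:37045716-37045965 (plus strand). Each reads 5′ to 3′ in the direction of the gene, and capitals mark GC boxes, GGGCGG on either strand.
Gria2: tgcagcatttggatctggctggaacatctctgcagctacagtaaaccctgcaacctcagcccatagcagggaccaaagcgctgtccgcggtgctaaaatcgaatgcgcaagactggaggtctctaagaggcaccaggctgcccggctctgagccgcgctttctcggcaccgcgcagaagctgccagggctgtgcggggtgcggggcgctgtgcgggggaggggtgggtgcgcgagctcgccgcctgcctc
Glrb: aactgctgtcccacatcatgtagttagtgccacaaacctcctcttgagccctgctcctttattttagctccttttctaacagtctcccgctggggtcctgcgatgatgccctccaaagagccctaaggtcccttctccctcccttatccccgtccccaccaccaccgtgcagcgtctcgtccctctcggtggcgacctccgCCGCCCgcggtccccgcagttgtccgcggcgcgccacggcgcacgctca
Gabbr1: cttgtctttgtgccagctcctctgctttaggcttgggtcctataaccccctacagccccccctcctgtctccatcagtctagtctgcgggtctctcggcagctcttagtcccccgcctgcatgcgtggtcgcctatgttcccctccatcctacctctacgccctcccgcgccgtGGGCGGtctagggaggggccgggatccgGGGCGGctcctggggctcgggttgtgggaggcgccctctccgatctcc

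Of the 26 members, 18 had such an upstream region, 11 of them measured genes, and Gabrd and Gria1 had none. A GC box was present in 9 of the 18, and in 6 of the 11 measured, against 32.9% of 27025 genes. Gabbr1 had 2, Glrb 1 and Gria2 none. The cAMP response element TGACGTCA was in 0 of the 18, against 1.62% of all, and its core TGACG in 1 of them, Gabrr1, against 17.9%. The TATA box TATAAA was in 2 of the 18, Gabra3 and Gabrb2, against 13.0% of all. Both strands were searched, and the core lies inside the full element. The median GC content was 61.4% in the members and 52.0% over all genes, and the median number of CpG pairs was 12 against 6. A match describes letters in this window and not a bound factor.

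Proteins that anchor or modulate these receptors included a gene as low as Gabrd. Of 20 auxiliary and scaffold genes of glutamate receptors, 16 were measured, 9 lower and 7 higher, with a median log2 ratio of -0.03, and 3 had a log2 ratio of -0.32 or lower and 0 of 0.32 or higher, against 8.36% and 8.05% of all measured genes. Lin7b, a PDZ protein of the Lin-7 complex, had 308 in the PS cDKO and 511 in the control, 1.66-fold lower. Camk2b, a subunit of the kinase that phosphorylates AMPA receptors, was 1.40-fold lower, and Cnih2, a cornichon that slows AMPA receptor gating, 1.36-fold lower. Nptx2, a pentraxin that clusters AMPA receptors, gave a bound of at least 1.18-fold higher. Dlg4, which encodes the scaffold PSD-95 and was named after its values were seen, had 1471 in the PS cDKO and 1597 in the control (log2 ratio -0.12).

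Scaffold and trafficking genes of GABA and glycine receptors had a median of -0.11 over 12 measured of 14 genes, with 8 lower and 4 higher, of which 2 were lower and 1 higher by 0.32 or more. Among all measured genes 48.1% were lower, 8.36% by that much, and 8.05% were higher by that much. Gabarapl1, a relative of the GABA-A receptor-associated protein, was 1.31-fold lower (2990 in the PS cDKO, 3912 in the control). Trak1, a kinesin adaptor, was 1.27-fold lower. Slc12a5, the chloride exporter KCC2 that makes GABA inhibitory in mature neurons, was 1.27-fold higher, and Hap1, a kinesin adaptor for GABA-A receptors, 1.16-fold higher.

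Genes that make, clear or transport the transmitters gave mixed values. For comparison, 48.1% of all measured genes were lower, 8.36% by 0.32 or more, and 8.05% were higher by that much. Over 7 measured of 10 genes of glutamate transport and metabolism, the median was 0.20, with 4 higher and 3 lower, of which 1 was higher by 0.32 or more. Slc38a2, a glutamine transporter, was 1.26-fold higher in the 1 of its 4 probe sets above the floor, and Slc1a4, a neutral amino acid transporter, was 1.22-fold higher. Got2, an aminotransferase, was 1.16-fold higher and Slc1a2, the main astrocytic glutamate transporter and also in the astrocyte list below, 1.15-fold higher. This median was -0.03 without suffixed probe sets and also below 0 with a 20th percentile floor or none. Over 7 measured of 10 genes of GABA and glycine synthesis and transport, the median was 0.09, with 4 higher and 3 lower, none by 0.32 or more. Gcsh, of the glycine cleavage system, was 1.21-fold lower, Slc32a1, the vesicular GABA and glycine transporter, 1.18-fold lower, Slc6a9, a glycine transporter, 1.20-fold higher and Shmt2, which makes glycine, 1.15-fold higher.

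**Figure D4:**
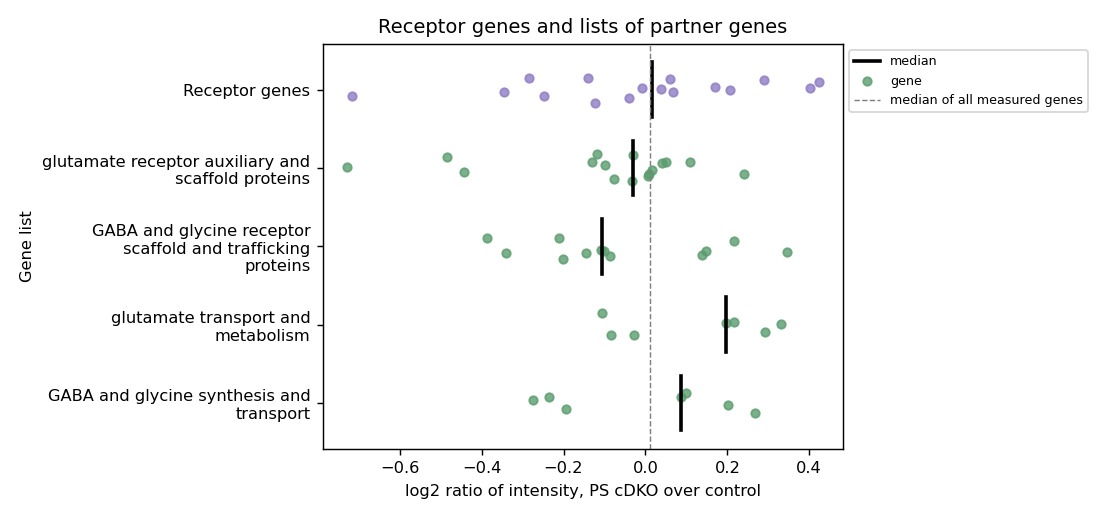
Log2 ratio of intensity, PS cDKO over control, for the receptor genes and 4 lists of partner genes, with bounds at their limit; points are genes, spread vertically for legibility, and bars are list medians. The receptor median of 0.015 lies at that of all measured genes, and Lin7b at -0.73 is the lowest partner gene.

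Markers of cortical cell types differed between the arrays. In bulk cortex, fewer cells of a type and less RNA per cell cannot be told apart. Each summed signal covers all probe sets of its list, those at the floor included. All 4 measured of 5 excitatory neuron markers were lower, at a median of -0.33 on the log2 scale, and Neurod6 was at the floor. Among all measured genes, 48.1% were lower. The 4 markers were uneven, with log2 ratios of -0.57 for Nrgn, -0.51 for Tbr1, -0.14 for Neurod2 and -0.10 for Camk2a. The sum over all 5 was 3780 in the PS cDKO and 4912 in the control. Most of that difference lay in Nrgn, named after its values were seen, with 1356 in the PS cDKO and 2014 in the control. Of 8 inhibitory neuron markers, 6 were measured, 3 lower and 3 higher, with a median log2 ratio of -0.06 and a list sum of 6305 in the PS cDKO and 7424 in the control, and Dlx1 and Gad2 were at the floor. Most of that difference lay in Sst and Npy, named after their values were seen. Sst had 1366 in the PS cDKO and 2002 in the control, and Npy had 967 in the PS cDKO and 1417 in the control. Of 5 astrocyte markers 4 were higher, with a list sum of 12454 in the PS cDKO and 9085 in the control. Most of that difference lay in Gfap, an intermediate filament gene of reactive astrocytes, whose probe sets had 1446 and 2145 in the PS cDKO and 188 and 458 in the control. Without Gfap, a gene singled out after its values were seen, the sum was 8863 in the PS cDKO and 8439 in the control. All 8 measured of 9 microglia markers were higher, with a list sum of 6766 in the PS cDKO and 4213 in the control, and Aif1 was at the floor. Of 5 oligodendrocyte markers 3 were measured, 2 lower and 1 higher, with a list sum of 8022 in the PS cDKO and 8977 in the control, and Cnp and Mog were at the floor. Mobp, also singled out after its values were seen, filled 4 of the list's 10 probe sets and was 1.36-fold lower, so this sum leans on it. Mag was 1.16-fold lower and Mbp 1.12-fold higher. The part of these shifts in the receptor values was not tested.

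Markers of other regions were also read, leaving out the receptor members among them, since Glra1, Gabrr2 and Grin2c are best known outside the cortex. Of 7 cerebellar markers, 5 were above the floor on both arrays and Car8 and Zic1 were at the floor, and the list sum was 7003 in the PS cDKO and 6440 in the control. Most of that sum was a single suffixed Pcp2 probe set, with 3745 in the PS cDKO and 3523 in the control. The other Pcp2 probe set was at the floor on both arrays. The 3 Hox genes used for brainstem and spinal cord were above the floor on both arrays, with a sum of 1129 in the PS cDKO and 999 in the control. The striatal markers summed to 4641 in the PS cDKO and 4237 in the control (3 of 4 measured, Tac1 at the floor), the thalamic ones to 6444 in the PS cDKO and 6361 in the control (4 of 4), and the hippocampal ones to 1256 in the PS cDKO and 933 in the control (2 of 3, Dsp at the floor). Most of the striatal sum was a pair of suffixed Penk probe sets, with 2404 and 1199 in the PS cDKO and 2146 and 1221 in the control. Pcp2 and Penk were singled out after their values were seen. Of 4 retinal markers, none was above the floor on both arrays: 3 were at the floor on both, and Pde6b was at it in the control. Whether the probe sets of Glra1, Gabrr2 and Grin2c read their own transcripts alone was not tested. Psen2, a presenilin gene, had 97.1 in the PS cDKO and 105 in the control, at the floor on both arrays.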

How the data were processed

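The values the authors deposited are linear array intensities, 1 for each of 12418 probe sets on each array, of which 18 were negative in the PS cDKO and 13 in the control. For how the authors made these intensities the software and steps were not given in the sources used here; the medians of 305 (PS cDKO) and 300 (control) lie close together. Symbols came from a platform annotation that can be old, and all 26 member genes matched the RefSeq gene table of GRCm38.p6, used for names, neighbours and upstream sequence (the first listed start of a gene).

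The PS cDKO array was scaled to a median log2 ratio of 0 over probe sets above the median rank on both arrays. Values under the floor were set to it. A gene value is the mean log2 ratio over its probe sets that cleared the floor on each array, else a bound. Precision is limited by 1 array per group, so genes were counted by fold, with no test. Alternatives were no scaling, quantile and lowess (span 0.3) normalization, floors at the 20th and 60th percentiles or none, the brightest probe set, no suffixed probe sets (_f, _r, _i, _s, _x, _g), and no bounds. In a check on simulated data for PS cDKO against control with 5805 genes, 98 of 100 genes raised and 96 of 100 lowered by 1 on the log2 scale passed 1.5-fold, as did 20 of 5605 unchanged ones. The changed genes had 1 probe set each and control signals well above the floor. The noise was the probe-set SD of 0.21, without variation between animals or arrays. Smaller changes, and changes in genes near the floor, were not simulated. The rule for named genes took every receptor member and, from each partner list, the 4 measured genes with the largest absolute log2 ratio. Members, lists and alternatives were chosen with earlier results of these data known. Python 3.11.15, numpy 2.4.6, pandas 2.3.3, statsmodels 0.14.6 and matplotlib 3.10.9 were used.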

Additional observations from a re-analysis of the deposited data

How the results depend on the processing

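Leaving out an array would leave a genotype with none. No paired analysis was possible because there is 1 array in each group. An alternative is said to move a ratio if it shifts it by more than 0.21, the SD of a single probe set. The count of receptor genes at 1.5-fold or more above control, 0, was 1 under a 20th percentile floor (Gabra2), 3 with no floor (Gabra2, Gabra6 and Gria4), 1 with the brightest probe set (Gria1) and 2 at a log2 threshold of 0.32. The count at 1.5-fold or more below control, 1, was 0 under a 60th percentile floor, 2 with no floor (Gabrd and Gria2), 2 at the log2 threshold of 0.32 and 0 at 2-fold. Measured receptor genes numbered 16, and 23, 12 and 26 under the lower floor, the higher floor and no floor. Over all genes, those 1.5-fold higher numbered 66 (1.12%), and 157 (2.15%), 29 (0.70%) and 404 (4.90%) in those settings. Those 1.5-fold lower numbered 48 (0.816%), and 79 (1.08%), 33 (0.79%) and 161 (1.95%). With the brightest probe set, 1.31% of all genes were higher and 0.95% lower. At the log2 threshold of 0.32, 8.05% of all genes were higher and 8.36% lower.

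The receptor median stayed between -0.11 and 0.15 and changed sign under 5 of 10 alternatives. The AMPA median of 0.07 was -0.19 under a 60th percentile floor and 0.37 with the brightest probe set. The glutamate transport median was -0.016 under a 20th percentile floor, -0.024 with no floor and -0.029 without suffixed probe sets, over 10, 10 and 5 genes against 7. Of 109 alternative values of the 12 receptor and partner medians, 104 moved by less than 0.21 and 14 changed sign. Of 138 alternative values of the 16 receptor genes, 134 moved by less than 0.21, and 12 genes kept their sign wherever they had a ratio. Many of these values could not move. For a gene with 1 probe set well above the floor, such as Gabbr1, the floors and probe-set choices return the main value. Leaving out the scaling shifts a ratio above the floor by only 0.034. These counts, and those of the medians, are therefore no measure of stability. The 12 genes that kept their sign include such genes. Of those, Gabrb2, Gabrr2 and Grin2d had none under a 60th percentile floor. Values of Gria1, Gria2 and Grik2 moved by more, through which of their probe sets entered the gene value. Genes near the floor, 10 of the 26, cannot be read at this signal.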
